A study of Mus musculus with 9 samples.

Results

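Co-stimulatory and co-inhibitory molecules are the surface proteins with which a macrophage tells a lymphocyte whether to act on the antigen it is shown. The 8 genes described here were taken by name: Cd80, Cd86, Icosl and Cd274 of the B7 family, Cd83, and Cd40, Tnfrsf9 and Tnfsf9 of the TNF and TNF receptor superfamilies. Each symbol matched 1 of the 55487 gene identifiers counted, and all 8 genes were among the 13453 with enough reads to be tested. The measurements are RNA-seq read counts from J774A.1, an established mouse macrophage line, in 3 groups of 3 libraries. Cells of the first group carried SLC12A9 sgRNA 11, those of the second SLC12A9 sgRNA 15, both guides against Slc12a9, a member of the cation-chloride cotransporter family, and those of the control group a Safe sgRNA, with the genotype given as WT. Both Slc12a9 guides have the genotype label knockdown, whereas the series' design text speaks of knockout, and whether the cells were a pool or a clone is not stated. All groups were grown in medium with 10% fetal bovine serum and added L-glutamine and were then held for 6 h without serum and glutamine before RNA extraction. The study asked how expression differs between Slc12a9-targeted and control cells in that medium.

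In textbook terms, T cells need a signal through the antigen receptor and a further signal from co-stimulators on the presenting cell. CD80 and CD86 bind CD28, which activates, and CTLA-4, which inhibits. ICOSL binds ICOS, PD-L1 (the product of Cd274) inhibits through PD-1, and CD83 stabilises CD86 and MHC class II at the surface by opposing the ubiquitin ligase MARCH1. CD40 on macrophages receives CD40 ligand from T cells and signals through TRAF adaptors to NF-kB, and 4-1BB (Tnfrsf9) and its ligand (Tnfsf9) form a receptor and ligand pair of the same superfamilies. Several of these genes are induced by NF-kB or by interferon when macrophages are activated.

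Reads assigned to genes numbered 16405296 to 25613961 per library. Levels are given in CPM, the read count of a gene relative to the scaled size of its library, and means carry the SD of 3 libraries. Whether the libraries of a group stem from different cultures is not stated, and p-values therefore measure the spread between these libraries, which may be technical. The targeted gene itself was not lower with either guide: Slc12a9 stood at 65.3 ± 2.38 CPM with sgRNA 11, 49.97 ± 1.73 with sgRNA 15 and 48.4 ± 4.49 with Safe sgRNA (SD, n = 3 each), and it was higher with sgRNA 11 (log2 0.43, SE 0.05, edgeR adjusted p = 6.45e-13). Whether the protein was lost cannot be judged from these counts. The groups are therefore named by their guide throughout. All 8 macrophage markers examined were detected, and their summed level was 8447 to 8750 CPM with sgRNA 11, 6857 to 6950 with sgRNA 15 and 5099 to 5263 with Safe sgRNA. Most of that difference lay in Lyz2, the gene of lysozyme, which stood at 4513 ± 87.2, 3567 ± 37.7 and 1727 ± 117 CPM in the same order of groups. With sgRNA 11, 6 of these markers were higher and 2 lower (Cd14 and Cd68), and with sgRNA 15, 5 were higher and 2 lower (Cd14 and Fcgr1). Over all tested genes 33.3% were called higher and 32.4% lower with sgRNA 11, and 32.2% and 30.7% with sgRNA 15. Cd14, a co-receptor of lipopolysaccharide, fell by 0.65 and 0.46 in log2 terms. The T cell markers Cd3e, Cd3g and Cd8a and the fibroblast markers Col1a2, Col3a1 and Dcn had 0 reads in every library. Pdgfra, the sole tested one of 5 fibroblast markers, stood at 2.16 ± 0.331 CPM with sgRNA 11, 2.18 ± 0.318 with sgRNA 15 and 1.34 ± 0.294 with Safe sgRNA. It was higher with both guides (edgeR adjusted p = 0.0124 and 0.0121). Both calls were lost without Safe replicate 2 or Safe replicate 3. The call with sgRNA 11 was also lost without sgRNA 11 replicate 1 (edgeR adjusted p = 0.0621), and that with sgRNA 15 without sgRNA 15 replicate 1 (edgeR adjusted p = 0.0752). The fibroblast list summed to 1.84 to 2.46, 1.88 to 2.61 and 1.21 to 1.68 CPM in that order of groups. The 7 T cell markers summed to 9.04 to 9.15 CPM with sgRNA 11, 9.37 to 9.88 with sgRNA 15 and 4.53 to 5.31 with Safe sgRNA, with Lck as the sole one of them with enough reads to be tested. Among 8 dendritic cell markers Ccr7 had 0 reads throughout, and the list summed to 6.53 to 8.41 CPM with sgRNA 11, 9.56 to 10.4 with sgRNA 15 and 12.3 to 13.2 with Safe sgRNA. Of its 3 tested members, Batf3 was lower with both guides, at 2.04 ± 0.202 CPM with sgRNA 11, 3.42 ± 0.148 with sgRNA 15 and 7.94 ± 0.477 with Safe sgRNA. Itgax and Zbtb46 were higher with sgRNA 15 (log2 0.95 and 0.44, edgeR adjusted p = 0.0159 and 0.00983) and had log2 differences of 0.30 and 0.21 with sgRNA 11 that were not called. The part of these marker differences in the results below was not tested. Fewer cells that express a gene and less RNA of it per cell cannot be told apart in such bulk libraries.

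The 8 genes did not move as a block. Cd86 and Cd80 were higher with both Slc12a9 guides, Cd40 and Tnfrsf9 were lower with both, and the other 4 genes differed from Safe sgRNA with 1 guide only. In the edgeR quasi-likelihood test with Benjamini-Hochberg adjustment over all tested genes and a threshold of 0.05, sgRNA 11 against Safe sgRNA called 5 of the 8 genes, where 65.8% of all tested genes were called. Of these, 3 were higher (background 33.3%) and 2 lower (background 32.4%). With sgRNA 15 against Safe sgRNA 7 of 8 were called, 5 higher and 2 lower, where the background was 62.9% in all, 32.2% higher and 30.7% lower. Both comparisons share the 3 Safe libraries. Cd83, counted with sgRNA 15 here and in the later counts, passed the read filter only through the sgRNA 15 libraries, where it was high. Higher with both guides were 2 of 8 genes against 26.0% of all tested genes, and lower with both 2 of 8 against 25.7%, so the share that moved the same way with both guides was near that of genes at large. The direct comparison of sgRNA 15 with sgRNA 11 called 6 of 8 genes where 33.5% of all tested genes were called. When both guides were averaged and set against Safe sgRNA, 7 of 8 were called, against 68.0% of all tested genes. Of these 7, Cd83, Icosl and Tnfsf9 passed the threshold with 1 guide only. The median absolute log2 difference between the guides was 0.32 over the 8 genes and 0.14 over all tested genes.

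**Figure D1:**
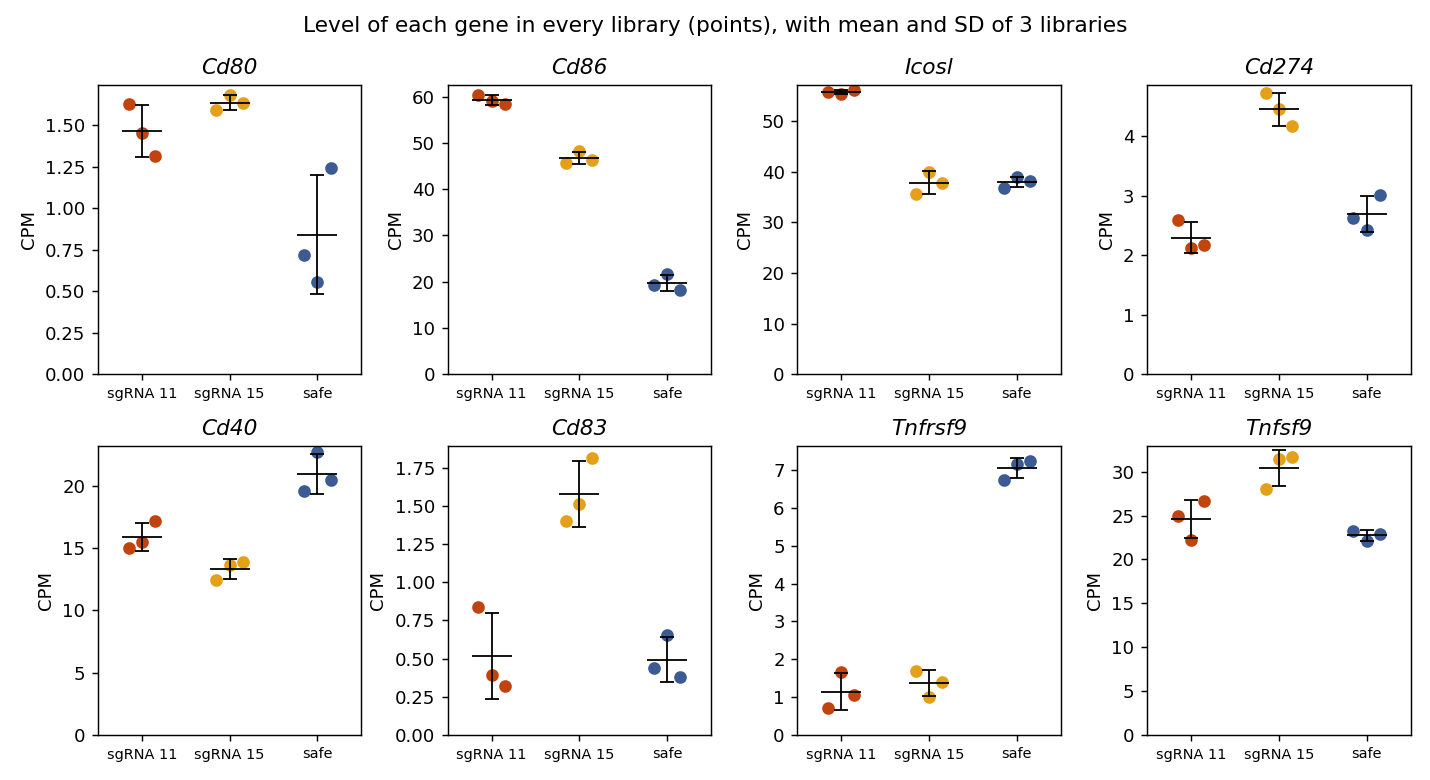
CPM of each of the 8 genes in every library, by guide, with a separate axis from 0 for each gene. Points are libraries, the long dash is the mean and the bars are the SD of 3 libraries. Cd86 lay at 58.4 CPM or above with sgRNA 11 and at 21.7 or below with Safe sgRNA, and Tnfrsf9 lay at 1.69 or below with either Slc12a9 guide and at 6.75 or above with Safe sgRNA.

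Cd86 (ENSMUSG00000022901, mm10 chromosome 16, 36603869 to 36666081, minus strand) encodes B7-2, the CD28 ligand that macrophages carry at rest. It had 60.4, 59.1 and 58.4 CPM with sgRNA 11, 45.7, 48.2 and 46.2 CPM with sgRNA 15, and 19.2, 21.7 and 18.2 CPM with Safe sgRNA. The 3 groups did not overlap, and the order was sgRNA 11, sgRNA 15, Safe. Cd86 rose 3.01-fold with sgRNA 11 (log2 1.59, SE 0.06, edgeR adjusted p = 4.96e-42) and 2.38-fold with sgRNA 15 (log2 1.25, SE 0.06, edgeR adjusted p = 1.09e-33). Between the guides it was lower with sgRNA 15 than with sgRNA 11 (log2 -0.34, SE 0.05, edgeR adjusted p = 1.73e-08).

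Cd80 (ENSMUSG00000075122, chromosome 16, 38455561 to 38496335, plus strand) encodes B7-1, the other CD28 and CTLA-4 ligand, which is induced on activation. It rested on few reads, 26 to 37 per library with sgRNA 11, 27 to 40 with sgRNA 15 and 11 to 23 with Safe sgRNA. Its level was 1.63, 1.45 and 1.31 CPM with sgRNA 11, 1.59, 1.68 and 1.63 CPM with sgRNA 15, and 0.719, 0.556 and 1.24 CPM with Safe sgRNA. Every library of the Slc12a9 guides lay above every Safe library, with Safe replicate 3 close to the lowest of them. Cd80 rose 1.77-fold with sgRNA 11 (log2 0.82, SE 0.31, edgeR adjusted p = 0.0146) and 1.98-fold with sgRNA 15 (log2 0.98, SE 0.30, edgeR adjusted p = 0.00329). The call with sgRNA 11 was lost without Safe replicate 1 (edgeR adjusted p = 0.0646), without Safe replicate 2 (edgeR adjusted p = 0.0998) and without sgRNA 11 replicate 1 (edgeR adjusted p = 0.0573). Between the guides the log2 difference was 0.16, with an approximate 95% interval from -0.38 to 0.70.

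Icosl (ENSMUSG00000000732, chromosome 10, 78069302 to 78083913, plus strand) encodes the ligand of ICOS, a co-stimulatory receptor of activated T cells. Its level was 55.8, 55.5 and 56.2 CPM with sgRNA 11, 35.6, 40.1 and 37.9 CPM with sgRNA 15, and 36.9, 39.0 and 38.2 CPM with Safe sgRNA. All sgRNA 11 libraries stood above the rest, while the sgRNA 15 and Safe libraries overlapped. Icosl rose 1.47-fold with sgRNA 11 (log2 0.56, SE 0.05, edgeR adjusted p = 4.36e-17). With sgRNA 15 the log2 difference from Safe sgRNA had an approximate 95% interval from -0.11 to 0.10, so a change as large as that with sgRNA 11 lay outside it. Compared directly, Icosl was lower with sgRNA 15 than with sgRNA 11 (log2 -0.56, SE 0.05, edgeR adjusted p = 2.77e-16).

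Cd274 (ENSMUSG00000016496, chromosome 19, 29367455 to 29388095, plus strand) encodes PD-L1, which restrains T cells through PD-1. It had 2.60, 2.12 and 2.17 CPM with sgRNA 11, 4.73, 4.46 and 4.18 CPM with sgRNA 15, and 2.64, 2.43 and 3.02 CPM with Safe sgRNA, from 38 to 106 reads per library. Here the sgRNA 15 libraries stood above all others, and the sgRNA 11 and Safe libraries overlapped. Cd274 rose 1.66-fold with sgRNA 15 (log2 0.73, SE 0.18, edgeR adjusted p = 0.000176), and its log2 difference with sgRNA 11 was -0.22 (SE 0.19, edgeR adjusted p = 0.326). Its level was higher with sgRNA 15 than with sgRNA 11 (log2 0.95, SE 0.18, edgeR adjusted p = 8.78e-06). Of its exon length 14.1% overlaps AC119228.1, a gene on the opposite strand, and whether counting used strand is not stated, so the value is uncertain. AC119228.1 itself had 0 to 8 reads per library.

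Cd83 (ENSMUSG00000015396, chromosome 13, 43784775 to 43803132, plus strand) encodes a surface marker of activated antigen-presenting cells. Its level was 0.836, 0.391 and 0.317 CPM with sgRNA 11, 1.40, 1.51 and 1.82 CPM with sgRNA 15, and 0.439, 0.657 and 0.378 CPM with Safe sgRNA. The sgRNA 15 libraries, with 29 to 36 reads each, stood above all others, which had 7 to 19 reads. Cd83 passed the read filter only through the sgRNA 15 libraries. In a fit of the sgRNA 11 and Safe libraries alone it could not be tested. Its place among the tested genes and its higher level with sgRNA 15 thus rest on the same reads. Cd83 rose 3.17-fold with sgRNA 15 (log2 1.66, SE 0.35, edgeR adjusted p = 2.56e-05) and was also higher with sgRNA 15 than with sgRNA 11 (log2 1.57, SE 0.35, edgeR adjusted p = 0.000143). With sgRNA 11 the log2 difference from Safe sgRNA was 0.10, with an approximate 95% interval from -0.74 to 0.93, and it turned to -0.47 without sgRNA 11 replicate 1 and to -0.05 without Safe replicate 3.

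Cd274 and Cd83 were thus higher with sgRNA 15, Icosl with sgRNA 11, and in each case the test between the guides passed the threshold. At large, 12.2% of tested genes were called with sgRNA 11 and not with sgRNA 15, and 9.31% with sgRNA 15 and not with sgRNA 11. Among the 8 genes these were 1 (Icosl) and 3 (Cd274, Cd83 and Tnfsf9).

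**Figure D2:**
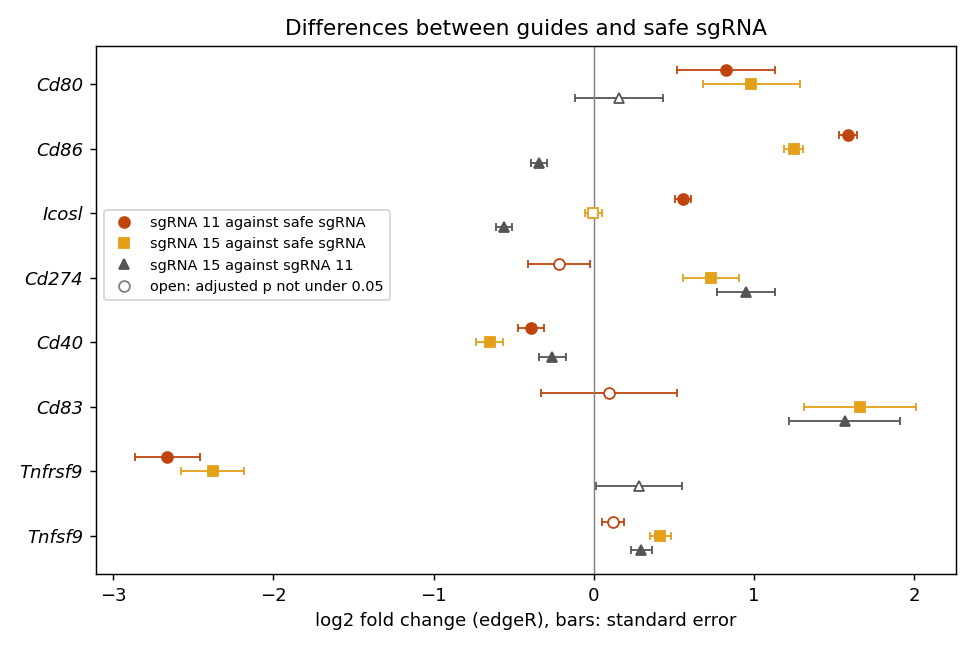
log2 fold changes of the 8 genes, with circles for sgRNA 11 and squares for sgRNA 15, each set against Safe sgRNA, and triangles for sgRNA 15 over sgRNA 11. Bars are standard errors, and open symbols mark an adjusted p that is not under 0.05. Tnfrsf9 lies farthest left with both guides (-2.66 and -2.38), and the symbols of Icosl, Cd274 and Cd83 for the 2 guides lie apart.

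Cd40 (ENSMUSG00000017652, chromosome 2, 165055627 to 165072948, plus strand) encodes the receptor through which T cell help reaches the macrophage. It had 15.0, 15.5 and 17.2 CPM with sgRNA 11, 12.4, 13.7 and 13.9 CPM with sgRNA 15, and 19.6, 22.7 and 20.5 CPM with Safe sgRNA. The groups did not overlap, and the Safe libraries were highest. Cd40 fell by 0.39 on the log2 scale with sgRNA 11 (SE 0.08, edgeR adjusted p = 1.01e-05) and by 0.65 with sgRNA 15 (SE 0.08, edgeR adjusted p = 5.03e-11). It was lower with sgRNA 15 than with sgRNA 11 (log2 -0.26, SE 0.09, edgeR adjusted p = 0.0132), a call that was lost without sgRNA 11 replicate 3 (edgeR adjusted p = 0.115) and without sgRNA 15 replicate 1 (edgeR adjusted p = 0.0817).

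Tnfrsf9 (ENSMUSG00000028965, chromosome 4, 150914562 to 150946102, plus strand) encodes 4-1BB, a receptor best known from activated T cells. It showed the largest difference among the 8 genes. Its level was 0.704, 1.67 and 1.04 CPM with sgRNA 11, 1.69, 1.01 and 1.39 CPM with sgRNA 15, and 6.75, 7.18 and 7.23 CPM with Safe sgRNA. This came from 16 to 30, 23 to 35 and 134 to 169 reads per library in that order of groups, and each Slc12a9-guide library held less than any Safe library. Tnfrsf9 fell by 2.66 on the log2 scale with sgRNA 11 (SE 0.20, edgeR adjusted p = 6.52e-21) and by 2.38 with sgRNA 15 (SE 0.20, edgeR adjusted p = 5.76e-19), which is 0.158 and 0.192 times the Safe level. The guides differed by 0.28 on the log2 scale, with an approximate 95% interval from -0.24 to 0.81.

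RefSeq promoter sequences (GRCm38.p6, the mm10 assembly) were at hand for 4 of the 8 genes: Tnfrsf9, with 2 annotated starts, Cd80, Cd274 and Icosl. The 250 bases before the start are shown for Tnfrsf9, the gene that fell most with both guides, and for Cd80, which rose with both. Both genes lie on the plus strand, and capitals mark matches to any of 6 motifs, searched on both strands. For both genes these starts lie inside the gene span given above and not at its outer end. Which start the cells used was not examined.
Tnfrsf9, upstream start, chr4:150919905-150920154: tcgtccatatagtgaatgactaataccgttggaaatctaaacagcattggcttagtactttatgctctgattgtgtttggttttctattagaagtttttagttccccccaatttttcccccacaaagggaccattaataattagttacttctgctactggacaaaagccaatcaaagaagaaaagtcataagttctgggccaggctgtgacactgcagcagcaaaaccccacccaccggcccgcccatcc
Tnfrsf9, downstream start, chr4:150927749-150927998: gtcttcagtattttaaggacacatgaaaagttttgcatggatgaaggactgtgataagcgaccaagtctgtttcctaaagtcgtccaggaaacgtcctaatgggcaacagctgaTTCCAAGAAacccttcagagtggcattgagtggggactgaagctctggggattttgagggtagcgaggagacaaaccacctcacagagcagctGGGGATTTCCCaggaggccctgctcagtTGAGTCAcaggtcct
Cd80, chr16:38458683-38458932: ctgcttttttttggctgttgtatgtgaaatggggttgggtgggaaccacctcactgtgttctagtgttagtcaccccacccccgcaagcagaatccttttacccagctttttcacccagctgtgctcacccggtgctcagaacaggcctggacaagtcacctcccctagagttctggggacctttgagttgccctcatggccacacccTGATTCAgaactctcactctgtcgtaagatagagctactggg
The motifs were the NF-kB consensus, AP-1 (TGANTCA), the interferon gamma activated site (TTCNNNGAA), the interferon-stimulated response element, an ATF4 and C/EBP element (TGATGNAAT) and the CLEAR element of lysosomal genes (TCACGTG). The window before the downstream Tnfrsf9 start held the NF-kB consensus in overlapping matches that begin 43 and 42 bases before the start, an AP-1 match 15 bases before it and an interferon gamma activated site 136 bases before it. The window before the upstream start held none of the 6 motifs. The Cd80 window held an AP-1 match 42 bases before the start, and the windows of Cd274 and Icosl held none. Of 32851 RefSeq promoter windows of that length, 3.90% held the NF-kB consensus, 6.75% AP-1, 7.02% the interferon gamma activated site, 2.98% the interferon response element, 0.816% the ATF4 and C/EBP element and 3.13% the CLEAR element. A match describes these letters and does not show binding.

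Tnfsf9 (ENSMUSG00000035678, chromosome 17, 57105325 to 57107757, plus strand) encodes the ligand of 4-1BB. It had 24.9, 22.3 and 26.6 CPM with sgRNA 11, 28.0, 31.5 and 31.7 CPM with sgRNA 15, and 23.2, 22.1 and 22.9 CPM with Safe sgRNA. The sgRNA 15 libraries stood above the rest, and the sgRNA 11 and Safe libraries overlapped. Tnfsf9 rose 1.33-fold with sgRNA 15 (log2 0.42, SE 0.07, edgeR adjusted p = 7.84e-08) and was higher with sgRNA 15 than with sgRNA 11 (log2 0.30, SE 0.07, edgeR adjusted p = 0.000146). With sgRNA 11 the log2 difference was 0.12 (SE 0.07, edgeR adjusted p = 0.125), and it passed the threshold without sgRNA 11 replicate 2 (log2 0.18, edgeR adjusted p = 0.0271) and with scaling by library size only (log2 0.15, edgeR adjusted p = 0.046). Gm11110, on the opposite strand, overlaps 14.9% of the exon length of Tnfsf9, so its value is uncertain. Gm11110 stood at 10.2 ± 0.103 CPM with sgRNA 11, 9.43 ± 0.326 with sgRNA 15 and 5.86 ± 0.394 with Safe sgRNA (SD, n = 3 each). Set per exon length, the ligand Tnfsf9 exceeded its receptor Tnfrsf9 in every library, by 28.1 to 74.6 times with sgRNA 11, 35.0 to 65.8 times with sgRNA 15 and 6.49 to 7.25 times with Safe sgRNA.

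Levels of different genes were compared as CPM per kb of exon. With Safe sgRNA the order was Tnfsf9 (17.6), Icosl (8.22), Cd40 (6.14), Cd86 (5.38), Tnfrsf9 (2.59), Cd274 (0.744), Cd80 (0.226) and Cd83 (0.191 CPM per kb), where the libraries of Cd40 overlapped those of Cd86 and those of Cd80 overlapped those of Cd83. With both Slc12a9 guides Tnfsf9 was followed by Cd86, then Icosl, then Cd40 and Cd274, with no overlap between these neighbours. Cd86 stood at 16.2 ± 0.280 CPM per kb with sgRNA 11, 12.8 ± 0.364 with sgRNA 15 and 5.38 ± 0.490 with Safe sgRNA (SD, n = 3 each), above 75.5%, 69.9% and 49.3% of tested genes. Tnfrsf9, the fifth of the 8 genes with Safe sgRNA at a level above 34.5% of tested genes, stood above 9.96% with sgRNA 11 and 11.7% with sgRNA 15. There its libraries overlapped those of Cd80 and Cd83 with both guides, and those of Cd274 with sgRNA 11. Of the CD28 ligands, Cd86 thus held the larger part, with a ratio to Cd80 per length of 37.5 to 44.9 with sgRNA 11, 28.6 to 29.0 with sgRNA 15 and 14.8 to 39.4 with Safe sgRNA. The wide Safe range goes with the 11 to 23 reads of Cd80.

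**Figure D3:**
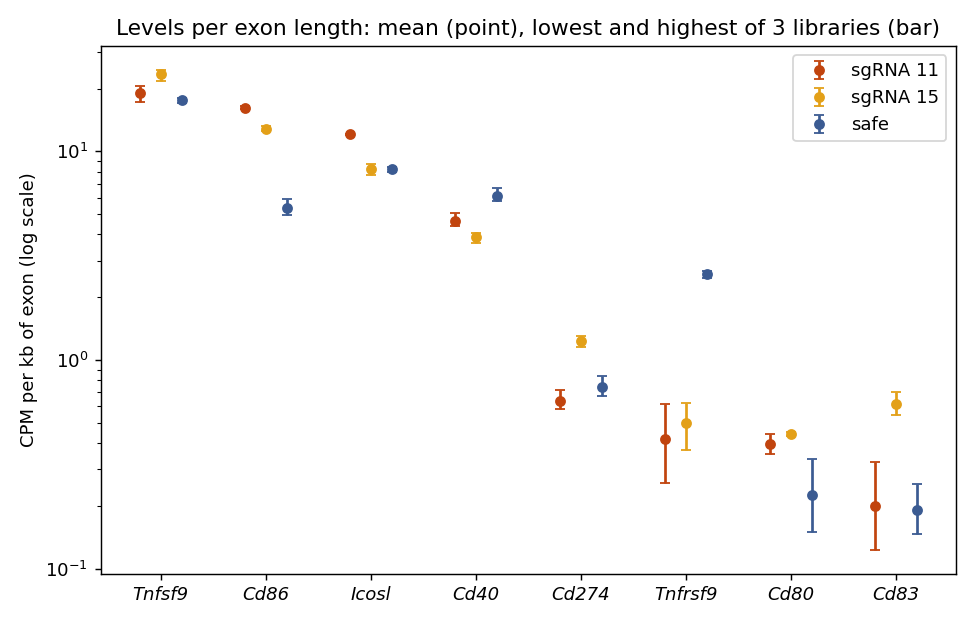
Levels of the 8 genes in CPM per kb of exon on a log axis, in the order of their sgRNA 11 level. Points are means of 3 libraries, and bars run from the lowest to the highest library. The Safe points lie below those of both Slc12a9 guides for Cd86 and above them for Cd40 and Tnfrsf9.

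For the 4 genes that moved with both guides, the genes of most similar pattern were sought among 9333 tested genes that averaged 5 CPM or more and whose symbols are not those of predicted models, pseudogenes or Rik clones. Likeness was the root mean square difference of log2 CPM over the 9 libraries, after subtraction of each gene's mean. Nearest to Cd86 were Fbxl20 (0.07), a subunit of ubiquitin ligases, Bst1 (0.08), an ectoenzyme that uses NAD, and Itgb5 (0.09), an integrin subunit. The level of Bst1 was 40.4 CPM with sgRNA 11, 30.6 with sgRNA 15 and 14.1 with Safe sgRNA. Nearest to Cd40 were Cdk2ap1 (0.07), Map2k3 (0.08), a kinase of the p38 pathway, and Il15 (0.08), a cytokine that sustains NK cells and memory T cells. Il15 stood at 9.29, 7.92 and 12.2 CPM in that order of groups. Nearest to Tnfrsf9, at larger distances, were Dusp2 (0.31), a phosphatase of MAP kinases, Tnip3 (0.37), an inhibitor of NF-kB signalling, and Gadd45b (0.37), a stress-response gene, all lower with both guides. Dusp2 stood at 2.36 CPM with sgRNA 11, 2.44 with sgRNA 15 and 10.7 with Safe sgRNA. Nearest to Cd80, with its few reads, were Slc16a7 (0.17), Tcta (0.17) and Sigirr (0.20), the last an inhibitor of interleukin-1 and Toll-like receptor signalling. These values describe likeness over 9 libraries that fall into 3 groups, and the directions of the genes named follow from their choice by likeness.

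Other genes of the same families, and of related checkpoints, were counted from lists. Over all tested genes the shares called were 33.3% higher and 32.4% lower with sgRNA 11, and 32.2% higher and 30.7% lower with sgRNA 15. Of 17 further B7 relatives and checkpoint ligands or receptors, 9 could be tested. With sgRNA 11, 4 were higher and 1 lower (median log2 0.20, against 0.01 over all tested genes), and with sgRNA 15, 5 were higher and 0 lower (median 0.40, against 0.01). The 5 of 9 called with each guide were below the 65.8% and 62.9% called over all tested genes. Vsir, which encodes the inhibitory B7 relative VISTA, stood at 291.6 ± 6.77 CPM with sgRNA 11, 163.2 ± 1.04 with sgRNA 15 and 124.2 ± 4.86 with Safe sgRNA (log2 1.23 and 0.40, SE 0.03 each, edgeR adjusted p = 6.70e-55 and 1.55e-20). Sirpa, the receptor of the CD47 signal against phagocytosis, rose by log2 0.34 with each guide, and Lgals9, which encodes galectin-9, rose by 0.59 and 0.48. Havcr2, the gene of the inhibitory receptor TIM-3, passed the threshold with 1 guide. It rose with sgRNA 15 (log2 1.21, SE 0.11, edgeR adjusted p = 3.12e-16), had a log2 difference of 0.20 with sgRNA 11 (edgeR adjusted p = 0.159), and differed between the guides (log2 1.01, edgeR adjusted p = 1.20e-12). Pdcd1lg2, the gene of PD-L2, had 0 reads in every library.

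Of 28 other TNF superfamily ligands and receptors 17 could be tested. With sgRNA 11, 9 were higher and 4 lower (median log2 0.23), and with sgRNA 15, 6 were higher and 5 lower (median 0.03). Over all tested genes 65.8% were called with sgRNA 11 and 62.9% with sgRNA 15, and the 11 of 17 called with sgRNA 15 were near that share. Tnf, the cytokine itself, fell to 32.3 ± 0.761 CPM with sgRNA 11 and 28.6 ± 0.842 with sgRNA 15, against 59.5 ± 1.59 with Safe sgRNA (log2 -0.88 and -1.05, SE 0.05 each, edgeR adjusted p = 1.07e-27 and 6.78e-32). Tnfrsf12a, the receptor of TWEAK, fell by 1.20 and 0.67 in log2 terms, and Tnfrsf11a, the receptor of RANK ligand, fell by 0.21 and 0.54. Tnfrsf1a, the main TNF receptor, rose by 0.50 and 0.20. Also listed were the genes of 5 lymphocyte partners, receptors or ligands, that bind products of the 8 genes. Of these, Cd40lg had 0 reads in every library, Ctla4 and Pdcd1 had at most 1 and 2 reads, and Cd28 and Icos could be tested. Cd28 stood at 3.02 ± 0.333 CPM with sgRNA 11, 6.25 ± 0.551 with sgRNA 15 and 4.91 ± 0.513 with Safe sgRNA. It fell with sgRNA 11 (log2 -0.70, SE 0.16, edgeR adjusted p = 6.47e-05) and rose with sgRNA 15 (log2 0.35, SE 0.14, edgeR adjusted p = 0.0255). The rise was not called by DESeq2 (adjusted p = 0.0708), nor by edgeR without Safe replicate 3 (adjusted p = 0.144), sgRNA 15 replicate 1 (adjusted p = 0.0665) or sgRNA 15 replicate 2 (adjusted p = 0.122).

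Genes that carry or restrain signals from CD40 and 4-1BB were counted next. Of 20 tested genes of TRAF and NF-kB signalling, 11 were lower and 4 higher with sgRNA 11 (median log2 -0.17) and 12 were lower and 2 higher with sgRNA 15 (median -0.20), and 9 were lower with both guides. Over all tested genes 32.4% were lower with sgRNA 11, 30.7% with sgRNA 15 and 25.7% with both. Traf1, an adaptor of TNF receptors and an NF-kB target, fell to 3.67 ± 0.408 CPM with sgRNA 11 and 4.27 ± 0.467 with sgRNA 15, against 12.4 ± 1.58 with Safe sgRNA. Nfkb2, which encodes p100, fell by 0.52 and 0.54 in log2 terms (SE 0.04 each, edgeR adjusted p = 5.40e-22 and 1.66e-22). Nfkbia, the gene of the NF-kB inhibitor IkB-alpha, fell by 0.43 and 0.52, and Birc3, an inhibitor of apoptosis recruited by TRAFs, fell by 0.64 and 0.69. The 2 of these 20 genes higher with both guides, against 26.0% of all tested genes, were Ikbkg (log2 0.42 and 0.40) and Birc2 (0.22 and 0.35). Of the other NF-kB subunit genes, Rel and Rela were not called with either guide, and Relb was lower with both (log2 -0.42 and -0.23). Nfkb1 was called higher with sgRNA 11 (log2 0.06) and lower with sgRNA 15 (log2 -0.06). Interferon receptors, JAK kinases, STATs and IRFs drive Cd274 and Cd40 after interferon. The list of such genes counted here also holds Socs1, Socs3 and Ptpn2, which restrain that signalling. Of 18 tested genes of that list, 12 were higher and 4 lower with sgRNA 11 (median log2 0.29), and 7 were higher and 5 lower with sgRNA 15 (median -0.03). The shares of all tested genes that were higher were 33.3% with sgRNA 11 and 32.2% with sgRNA 15, those that were lower 32.4% and 30.7%, and the 12 of 18 called with sgRNA 15 were near the 62.9% called at large. Tyk2 (log2 0.76 and 0.63) and Jak2 (0.58 and 0.47), both kinases of cytokine receptors, rose with both guides, as did the receptor chains Ifnar2 (0.64 and 0.40) and Ifngr1 (0.83 and 0.33). In that list of 18, 7 genes were higher and 3 lower with both guides, where 26.0% and 25.7% of all tested genes were. Among the 3 was Ifngr2, the other chain of the interferon gamma receptor (-0.15 and -0.24). Irf1 and Irf7 rose with sgRNA 11 (0.37 and 0.33) and fell with sgRNA 15 (-0.18 and -0.52).

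Genes for the turnover and shedding of B7 proteins went in both directions. Of 12 tested, 4 were higher and 6 lower with sgRNA 11 (median log2 -0.06), and 6 were higher and 5 lower with sgRNA 15 (median 0.05), where the calls with sgRNA 15 came to 7 without its replicate 2. These 10 and 11 calls of 12 stand beside 65.8% and 62.9% of all tested genes. Zdhhc9, a palmitoyltransferase, rose by log2 0.64 and 0.33, and Adam10, a protease that sheds surface proteins, rose by 0.33 and 0.12. Cops5, which removes ubiquitin-like tags, fell by 0.39 and 0.31, and Spop, a ubiquitin ligase adaptor, fell by 0.23 and 0.09. The fall of Spop with sgRNA 15 was not called with scaling by library size only (edgeR adjusted p = 0.214) or without sgRNA 15 replicate 2 (edgeR adjusted p = 0.0793). March1, chosen after its values were seen, encodes the ubiquitin ligase that removes CD86 from the surface. It stood at 2.38 ± 0.500 CPM with sgRNA 11, 0.905 ± 0.276 with sgRNA 15 and 0.511 ± 0.261 with Safe sgRNA, and rose with sgRNA 11 (log2 2.21, SE 0.32, edgeR adjusted p = 4.22e-09). With sgRNA 15 its log2 difference was 0.85 (SE 0.38, edgeR adjusted p = 0.0438), a call that was lost with DESeq2 (adjusted p = 0.0731), with no filter on low counts and without any of 5 single libraries (edgeR adjusted p up to 0.242).

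**Figure D4:**
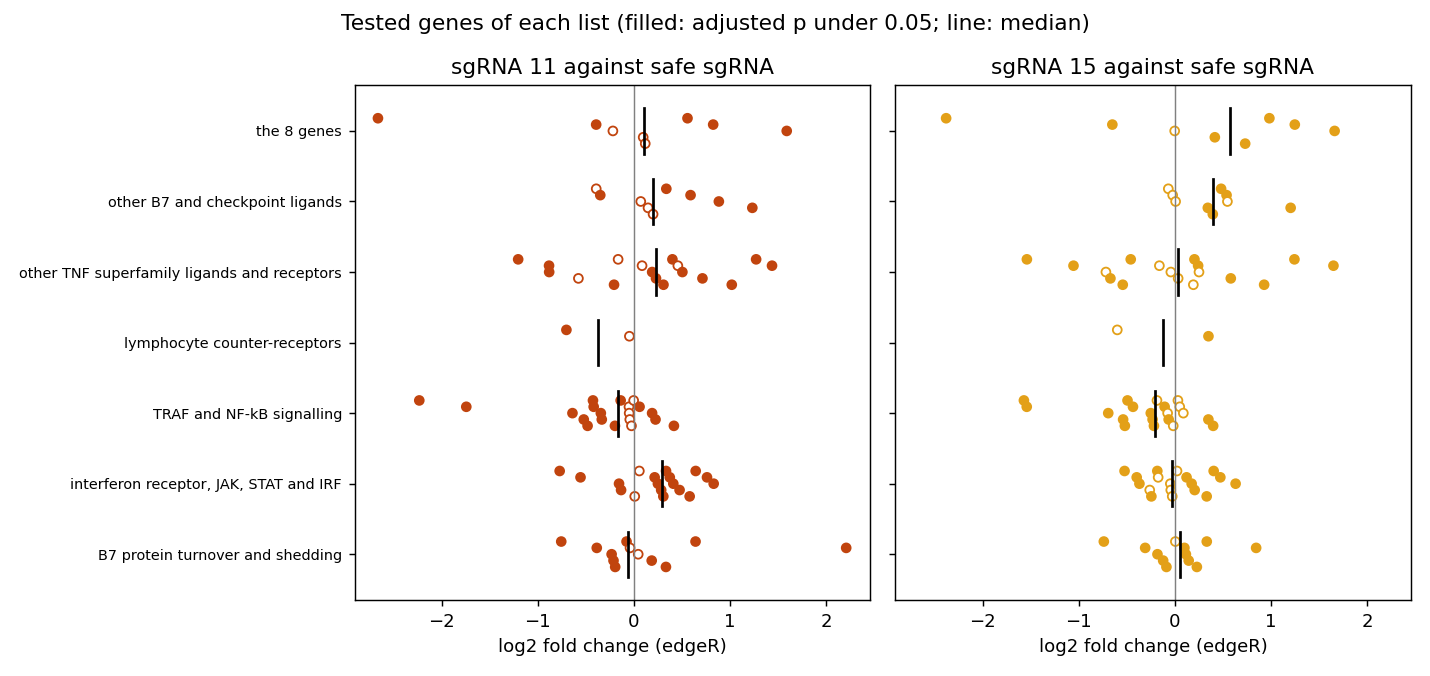
log2 fold changes against Safe sgRNA of the 8 genes and of the tested genes of 6 related lists, with sgRNA 11 on the left and sgRNA 15 on the right. Each point is a gene, filled where the adjusted p is under 0.05, and black lines are medians, which run from -0.37 to 0.29 over the lists with sgRNA 11 and from -0.20 to 0.57 with sgRNA 15.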

How the data were processed

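The deposited files hold raw read counts by gene. STAR, HTSeq and mm10 are named in the submitters' processing notes, and neither their versions nor the strand setting is stated there. HTSeq's tallies of unassigned reads were set aside. Genes took 79.3 to 80.7% of each table, and 6.32 to 6.56% were ambiguous between genes. Symbols, positions and exon lengths came from GENCODE M21 of the same build. Genes that overlap another over 10% or more of their exon length are called uncertain.

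Samples were grouped by the guide in their titles. Counts were filtered with filterByExpr (minimum count 10), scaled by TMM (factors 0.979 to 1.02) and fitted with edgeR 4.0.16 in R 4.3.3 as a robust quasi-likelihood model over all 9 libraries (6 residual degrees of freedom). F tests were 2-sided, with Benjamini-Hochberg adjustment over 13453 genes in each of 4 contrasts (each guide and the mean of both against Safe sgRNA, and sgRNA 15 against sgRNA 11). Standard errors were derived from F, and intervals of 95% from them. The procedure was run on counts simulated from its own fitted model, for sgRNA 11 against Safe sgRNA only. Such a run cannot show how it fares where real counts depart from that model. Replicate pairs differed beyond sampling noise (chi-square per degree of freedom 1.76 to 6.83), the highest in pairs with Safe replicate 1.

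The 8 genes and the lists were chosen with earlier results of these data known. Named from each list were up to 4 genes, those with the lowest p when both guides were averaged, among those averaging 1 CPM or more, and named as alike were the 3 nearest genes to each member called with both guides. Pdcd1lg2, the lymphocyte partners and the markers were named as members of short lists. Socs1, Socs3 and Ptpn2 were named to describe their list. Relb and Nfkb1 were named to complete the NF-kB subunit genes. Ikbkg, Birc2, Rel, Rela, Ifngr2, Irf1 and Irf7 were chosen after their values were seen, as genes that did not move like the 4 named from their lists. Alternatives were DESeq2 1.42.0, limma-voom (limma 3.58.1), other scalings, a correction for GC content and length, other filters, the replicate number as a block, fits restricted to each pair of groups, and each library left out in turn.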

Additional observations from a re-analysis of the deposited data

Results flagged for a closer look

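For 6 of the 8 genes the effects of the Slc12a9 guides differed by the test of the difference itself, sgRNA 15 against sgRNA 11 in the edgeR fit, where 33.5% of all tested genes were called. On the log2 scale Cd83 (1.57), Cd274 (0.95) and Tnfsf9 (0.30) were higher with sgRNA 15 than with sgRNA 11, and Icosl (-0.56), Cd86 (-0.34) and Cd40 (-0.26) were lower. Of these, Cd83 passed the read filter only through the sgRNA 15 libraries. Against Safe sgRNA, Cd86 was higher and Cd40 lower with both guides, so the guides differed in size there, whereas Cd83, Cd274, Tnfsf9 and Icosl passed the threshold with 1 guide only. Slc12a9 mRNA also differed between the guides (log2 -0.39, SE 0.05, edgeR adjusted p = 2.12e-10). The part of that difference in these results was not tested.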

How the results depend on the processing

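With a minimum mean of 5 CPM, only 4 of the 8 genes could be tested, and 3 were called with sgRNA 11, 3 with sgRNA 15 and 4 with the mean of both guides, against 5, 7 and 7. That filter also left 8 and 6 called genes of the TNF superfamily list (13 and 11 before) and, with 0 lymphocyte partners tested, 0 and 0 called. DESeq2 called 0 lymphocyte partners with sgRNA 15 (edgeR 1). With each library left out, calls with sgRNA 15 ranged from 0 to 1 for lymphocyte partners and from 7 to 11 for B7 turnover. Calls among the 8 genes then ranged from 4 to 6 with sgRNA 11, 7 to 7 with sgRNA 15 and 5 to 6 between the guides. With both guides averaged they ranged from 6 to 7, where Cd83 was not called without Safe replicate 1 or 3 or sgRNA 11 replicate 1. Signs turned only for log2 differences that were not called: Cd83 with sgRNA 11 (-0.47 to 0.36 over left-out libraries), and with sgRNA 15 Icosl (-0.0561 to 0.041 over left-out libraries, 0.0371 with library size only, 0.0099 at a minimum of 5 CPM, 0.0004 with limma-voom), Slc12a9 (-0.0163 to 0.11, and -0.0528 after GC and length correction), Csf1r (0.0199 with library size only), Lrrc25 (-0.0614 to 0.0037 over left-out libraries, and 0.015 with library size only) and Dhx40 (-0.0635 to 0.0201 over left-out libraries, and 0.0177 with library size only). The cause was not tested, beyond the fewer genes that the 5 CPM filter leaves. Of 2342 single-gene values under alternatives, 2287 kept direction and side of the threshold.

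Replicate numbers are shared by the groups, but nothing says what they mark. Same-numbered libraries of different groups correlated at -0.01 to 0.06 in their deviations from group means, so they were not taken as pairs. With the number as a replicate block the calls among the 8 genes stayed at 5, 7, 6 and 7, and over all genes came to 8940 with sgRNA 11, 8550 with sgRNA 15 and 4695 between the guides. Depth limits Cd80, Cd83 and Tnfrsf9, for which single libraries held as few as 11, 7 and 16 reads.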

Other observations

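Pattern neighbours of genes that differed between the guides fall outside the naming rule and were chosen after their values were seen. Nearest to Icosl among 9333 genes were Lrrc25 (root mean square difference of centred log2 CPM 0.04), Csf1r (0.05) and Dhx40 (0.05). Csf1r, the receptor of the macrophage growth factor M-CSF, stood at 2628 ± 37.7 CPM with sgRNA 11, 1745 ± 8.24 with sgRNA 15 and 1767 ± 24.2 with Safe sgRNA. It rose with sgRNA 11 (log2 0.57, SE 0.02, edgeR adjusted p = 3.44e-40), a direction that follows from its choice by likeness to Icosl. With sgRNA 15 its log2 difference of -0.02 was not called (edgeR adjusted p = 0.488), though after the GC and length correction it was -0.10 (edgeR adjusted p = 1.03e-07). Nearest to Cd274 were Plxdc1 (0.09), Lilr4b (0.11), a leukocyte receptor, and Lyst (0.11), a regulator of lysosome size. Lyst stood at 31.0 CPM with sgRNA 11, 55.0 with sgRNA 15 and 33.0 with Safe sgRNA.

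Lck, a kinase of T cells, was the sole T cell marker with enough reads to be tested and stood at 9.04 ± 0.195 CPM with sgRNA 11, 9.55 ± 0.310 with sgRNA 15 and 4.76 ± 0.382 with Safe sgRNA, while the T cell receptor complex genes Cd3e and Cd3g had 0 reads.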
